A study of Mus musculus with 2 samples.

Results

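The genes described here are 10 NF-κB feedback and target genes, Nfkbia, Nfkbie, Nfkbiz, Tnfaip2, Tnfaip3, Tnip1, Tnip3, Birc3, Relb and Nfkb2. They were chosen by symbol from the 27998 genes of the count matrices, and all 10 symbols were found in both libraries. The choice was made with earlier results of these data known. The shares of all genes set beside them below are therefore a description and not a test. Their level was measured in organoids grown from alveolar type 2 (AT2) cells, by droplet-based single-cell RNA sequencing (scRNA-seq) of 1 control library and 1 IL-1β library. AT2 cells carrying the Tomato label were sorted from tamoxifen-treated SPC-CreERT2;R26RTomato mice of the C57BL/6 strain, aged 6 to 10 weeks, and were embedded in Matrigel together with stromal cells that had been cultured from lung. The Cre is driven by the surfactant protein C promoter, so the label marks cells that had expressed Sftpc, whereas the stromal cells were added as a cultured population. Control organoids received PBS and the others received IL-1β, at 10 ng/mL according to the figure legend and 20 ng/mL according to the culture methods. Culture lasted 2 weeks in the description of the deposited samples and ran to day 21 in the legend. The question was how the genes differed between control and IL-1β-treated organoids, in each cell class.

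NF-κB transcription factors are held in the cytoplasm by IκB proteins. IL-1β binding to its receptor activates the IκB kinase complex, the IκBs are degraded, and the freed dimers enter the nucleus and bind κB sites. Many of their first targets encode the brakes of the same pathway, among them new IκB, ubiquitin-editing enzymes and their adaptors, so the response is limited by its own products. In alveolar epithelium and stromal cells the pathway is known as a main route from IL-1 to chemokine and acute-phase gene expression.

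The members' start regions are shown first, because κB sites are the sequences through which NF-κB acts. RefSeq promoters on GRCm38.p6, which run from 250 bases before to 50 bases after a start site, were matched by symbol for 8 of the 10 genes. Nfkbiz and Relb were not matched. All 11 promoters of the 8 matched genes held the motif GGGNNNNNCC on either strand, as did 50.8% of all 32851 promoters. The narrower κB consensus, which is contained in that motif, was found in 8 of these 11 promoters, against 4.5% of all promoters. Since the genes were chosen as NF-κB feedback and target genes, this difference is a description of the list. The 8 promoters belong to 6 of the 8 genes. These 6 were Nfkbia, Nfkbie, Tnfaip3, Tnip1, Tnip3 and Nfkb2, and the letters were not in the windows of Birc3 and Tnfaip2. The 250 bases before the start are printed below, 5′ to 3′ on the gene's strand, for the 4 matched genes with the highest IL-1β over control ratios in AT2-like cells. They lie at chr12:111442411-111442660 (+ strand) for Tnfaip2, chr6:65590148-65590397 (+ strand) for Tnip3, chr12:55492648-55492897 (- strand) for Nfkbia and chr17:45555450-45555699 (+ strand) for Nfkbie. The Tnip3 window lies inside the longer GENCODE gene model whose bounds are given with its values. Most of the Tnfaip2 window also lies inside its model, which starts at base 111442469. These bases are thus before the RefSeq starts used, and not before the starts of those 2 models. Capitals mark every match to GGGNNNNNCC on either strand, with overlapping matches joined.
Tnfaip2: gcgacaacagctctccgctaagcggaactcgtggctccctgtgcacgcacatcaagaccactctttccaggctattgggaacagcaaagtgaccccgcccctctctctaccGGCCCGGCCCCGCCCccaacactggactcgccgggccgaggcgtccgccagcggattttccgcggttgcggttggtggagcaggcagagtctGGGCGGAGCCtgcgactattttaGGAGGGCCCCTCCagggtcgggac
Tnip3: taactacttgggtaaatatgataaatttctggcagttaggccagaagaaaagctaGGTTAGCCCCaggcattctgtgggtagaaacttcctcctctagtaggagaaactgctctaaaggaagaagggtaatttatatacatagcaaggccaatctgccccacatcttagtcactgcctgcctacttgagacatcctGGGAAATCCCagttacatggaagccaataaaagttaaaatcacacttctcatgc
Nfkbia: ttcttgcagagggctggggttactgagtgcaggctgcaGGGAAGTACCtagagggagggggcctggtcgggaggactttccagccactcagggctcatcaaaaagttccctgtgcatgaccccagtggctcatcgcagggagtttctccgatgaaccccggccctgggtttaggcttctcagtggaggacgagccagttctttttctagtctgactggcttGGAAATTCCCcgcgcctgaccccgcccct
Nfkbie: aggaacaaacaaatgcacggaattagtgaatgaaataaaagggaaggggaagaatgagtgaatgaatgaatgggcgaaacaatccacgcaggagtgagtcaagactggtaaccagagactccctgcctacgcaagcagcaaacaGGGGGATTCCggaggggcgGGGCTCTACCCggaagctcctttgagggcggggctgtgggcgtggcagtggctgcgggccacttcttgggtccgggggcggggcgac
Among these capitals, the κB consensus was matched by GGGAAATCCC 54 bases before the Tnip3 start. It was also matched by GGAAATTCCC, read on the opposite strand, 29 bases before the Nfkbia start and by GGGGGATTCC 106 bases before the Nfkbie start. The other capitals matched the looser motif alone. In the genes not printed, the consensus was matched by GGGAATTCCC 57 bases before the Tnip1 start and 39 bases before 1 of the 3 Nfkb2 starts. The windows of all 3 Nfkb2 starts held a match, those of the others GGGACTTTCC and, in 1 of them, also GGAATGTCCC. The windows of these other starts overlap, and their GGGACTTTCC is the same site, found in both promoters. Of the 2 Tnfaip3 starts, 1 had GGAAATCCCC 12 bases and GGGACACCCC 125 bases before it. A match describes letters and does not show that a factor was bound.

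The control library held 33965848 unique molecular identifiers (UMIs, each marking 1 captured transcript) in 2101 barcodes, and that of IL-1β 41220175 in 3066, at medians of 14613 and 11496.5 per barcode. After the cutoffs, 2081 and 3058 cells were left. Clusters were named from marker genes, as "like" the type whose markers they held. AT2-like cells numbered 812 (control) and 1927 (IL-1β), AT1-like cells 260 and 381, cells like damage-associated transient progenitors (DATP-like) 33 and 213, and stromal cells 797 and 478. Nearly all clusters were held by 1 library: AT2-like cells were cluster E2 (795 cells) in the control and clusters E1 (840), E3 (618) and E4 (468) in the IL-1β library, AT1-like cells were E6 and E5, DATP-like cells E11 and E7, and stromal cells mainly S1 (586) and S2 (460). A cluster mostly of 1 library may therefore be that library and not a type. With 1 library per condition no test was possible, cells are not replicates, and the 95% intervals below (exact Poisson for levels, exact conditional binomial for ratios, Clopper-Pearson for shares) cover counting error only. Levels are UMIs per 1000000 UMIs of the class (CPM), and they are compared within a gene, not between genes.

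In AT2-like cells 9 of the 10 genes were at least 2-fold higher in the IL-1β library, with an interval above 1. Of the 11282 genes with at least 50 UMIs in this class, 8.46% met the same criterion, and 3.32% were at least 2-fold lower. The exception was Nfkbiz. Tnip1 and Nfkb2 lay close to the limit and were under it, with 7 of the 10 genes left, at resolution 2.0, with median-of-ratios or TMM factors, and without the surfactant, mitochondrial and ribosomal protein genes, with log2 ratios down to 0.89 for Nfkb2 and 0.94 for Tnip1. With each library clustered separately Tnip1 alone was under it, and 8 genes were left. None of the 10 genes was at least 2-fold lower in any class. In AT1-like cells 7 of the 10 were at least 2-fold higher, against 4.47% of 9406 genes, where 3.3% were lower. In DATP-like cells 4 of the 9 genes with at least 50 UMIs were higher, against 6.65% of 6161 genes, where 4.92% were lower, and Nfkbie had 33 UMIs and was not counted. In stromal cells 1 of the 10, Tnip3, was higher, against 4.23% of 11380 genes, where 11.7% were lower. The median log2 ratio of the genes counted was 1.80 in AT2-like, 1.31 in AT1-like, 0.71 in DATP-like and 0.04 in stromal cells. The median of all genes counted in the same classes was 0.13, 0.00, -0.07 and -0.33. Markers of the AT1-like class itself differed between the libraries, and their part in its count was not tested. Its 12 AT1 markers summed to 21830 CPM (control) and 13690 CPM (IL-1β), and 10 DATP markers to 1956 and 3477 CPM, with Cldn4, a DATP marker, at 35.1 and 260.8 CPM. The naming score of E5 was 0.823 for AT1-like and 0.715 for DATP-like.

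**Figure D1:**
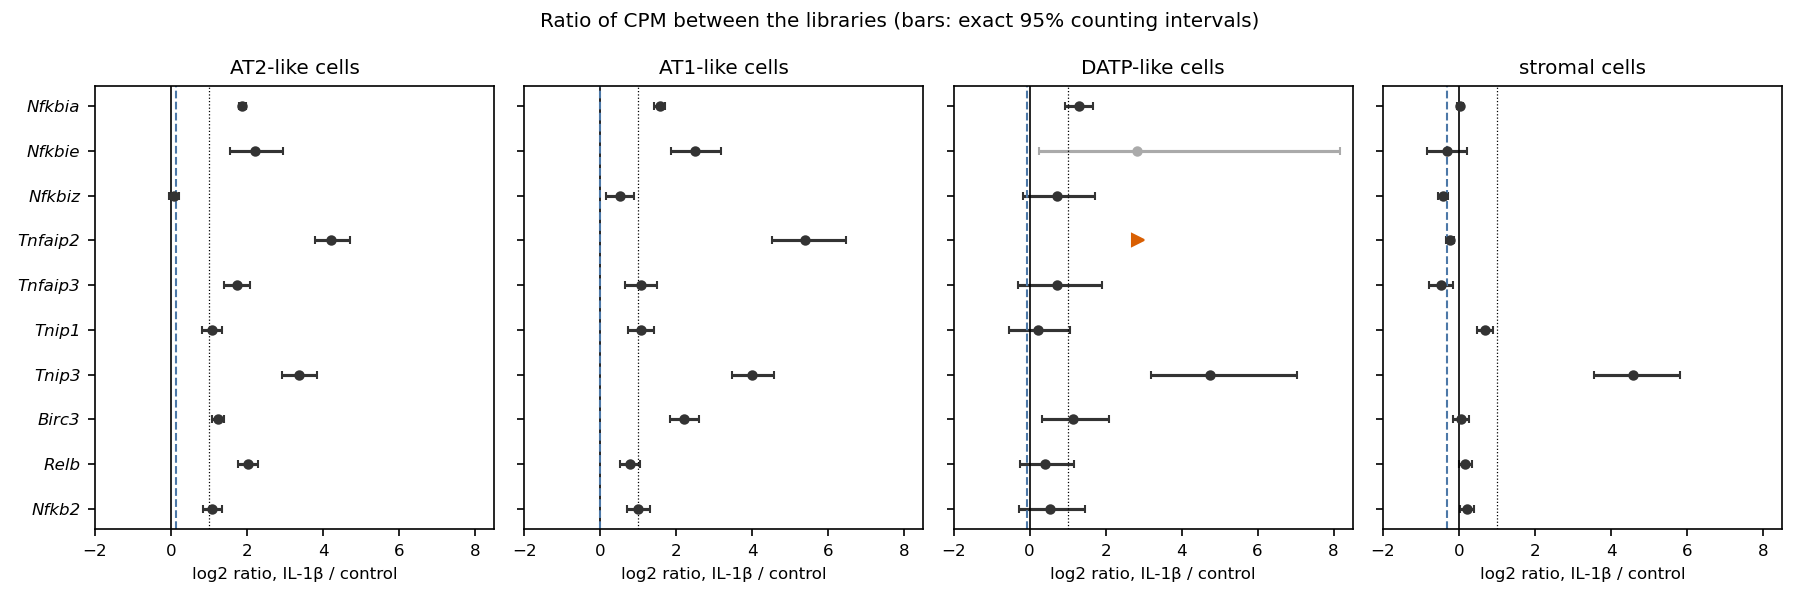
Log2 ratio of CPM (horizontal axis, IL-1β over control) of each gene (rows) in the 4 cell classes (panels), with exact 95% counting intervals as bars. The solid line marks no difference, the dotted line a ratio of 2 and the dashed line the median of all genes counted. The grey point is Nfkbie, under the 50 UMI minimum, and the triangle is Tnfaip2, drawn at 7.2-fold because its control count was 0, taken to allow 3 UMIs. In AT2-like cells 9 points lie past the dotted line, and in stromal cells 1 does.

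**Figure D2:**
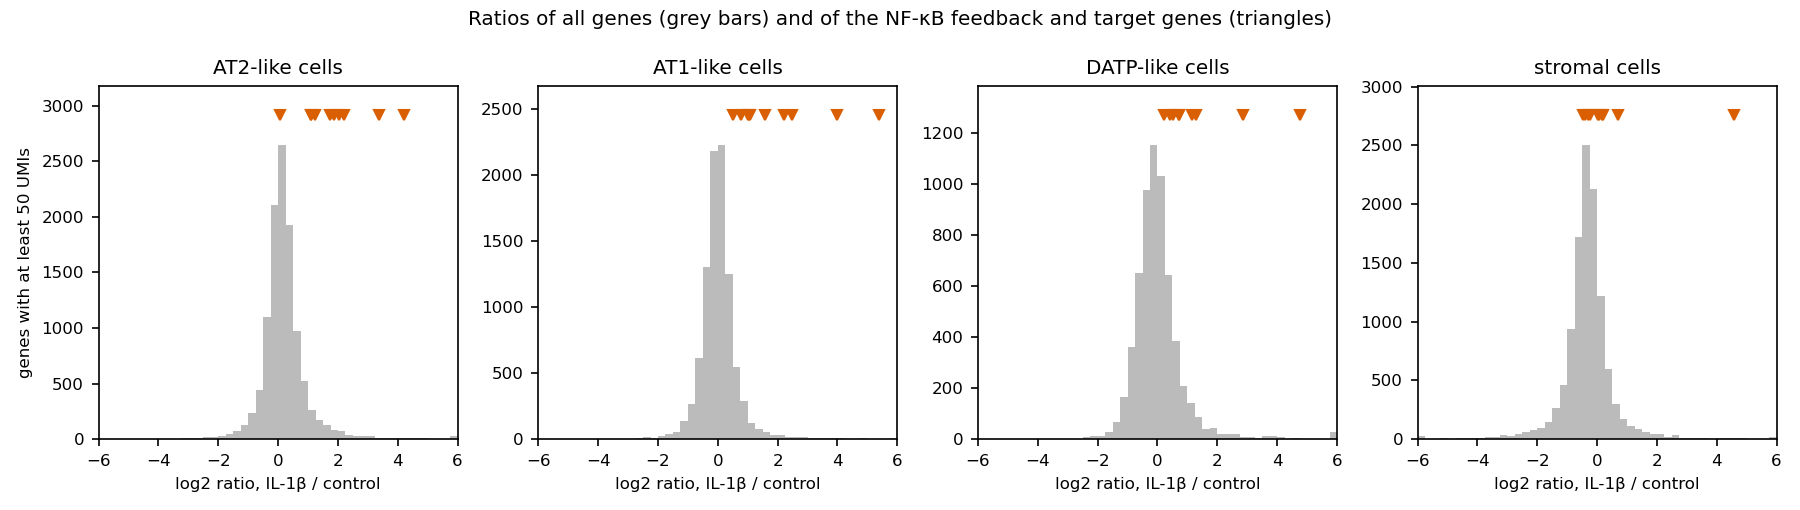
Number of genes with at least 50 UMIs (vertical axis) by log2 ratio of IL-1β over control (horizontal axis, bins of 0.25, end bins holding all larger differences) in each class. Triangles mark the NF-κB feedback and target genes at their ratios. In AT2-like cells they sit from 0.08 to 4.22 against a median of 0.13 for all genes.

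The classical inhibitors bind NF-κB directly. Nfkbia encodes IκBα, which traps NF-κB dimers in the cytoplasm and is itself remade on their activation (gene at chr12:55489410-55492647). In AT2-like cells it had 85.7 CPM in the control (95% interval 80.5 to 91.1) and 314 CPM in that of IL-1β (307 to 321), a ratio of 3.67 (3.43 to 3.92). In AT1-like cells the levels were 138 and 407 CPM (ratio 2.96, 2.68 to 3.26), and in DATP-like cells they were 147 and 360.1 CPM (ratio 2.45, 1.92 to 3.17). The DATP-like log2 ratio of 1.29 became 2.52 at resolution 2.0, 2.33 with Louvain clustering and 2.37 with all highly variable genes. The epithelial classes of the IL-1β library were thus all above those of the control, with no overlap of their intervals. In stromal cells the levels were 242 and 247 CPM, a ratio of 1.02 (0.968 to 1.08). On the log2 scale this was 0.03, beside the stromal median of -0.33, and it ranged from -0.07 to 0.36 over the alternatives. Stromal cells therefore had the highest Nfkbia of the 4 classes in the control and the lowest in the IL-1β library, where the 4 classes spanned 1.65-fold.

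Nfkbie encodes IκBε, a slower inhibitor of the same kind (chr17:45555703-45563169). It was sparse, with 21 control UMIs in AT2-like cells. Its level there was 1.77 CPM in the control and 8.20 CPM in that of IL-1β, a ratio of 4.63 (2.94 to 7.66). In AT1-like cells it was 6.11 and 34.3 CPM, a ratio of 5.61 (3.62 to 9.08). The AT1-like level of the IL-1β library was thus apart from the other 3 classes, the next being DATP-like cells at 14.6 CPM (9.98 to 20.6). DATP-like cells of the control held 1 UMI. In stromal cells the levels were 6.26 and 5.06 CPM, and the ratio of 0.808 had an interval that held 1 (0.555 to 1.17).

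Nfkbiz encodes IκBζ, a nuclear IκB that is known as a co-activator of secondary NF-κB targets (chr16:55811375-55838899). It was the exception in AT2-like cells, with 53.6 CPM in the control (49.5 to 58.0) and 56.5 CPM in the IL-1β library (53.5 to 59.7). The ratio was 1.05 (0.958 to 1.16), and 44.7% of the genes counted had a lower one. In AT1-like cells it was 26.0 and 37.0 CPM, a ratio of 1.42 (1.11 to 1.84). In DATP-like cells it was 24.8 and 40.6 CPM, with an interval of the ratio that held 1 (0.891 to 3.28). Stromal cells had the highest level in both libraries, 101 CPM in the control and 75.4 CPM in the IL-1β library. That stromal ratio was 0.747 (0.682 to 0.819), or -0.42 on the log2 scale, close to the stromal median of all genes of -0.33, and over the alternatives run it ranged from -0.57 to -0.09.

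The ubiquitin-editing brakes act upstream of the inhibitors. Tnfaip3 encodes the enzyme A20, which removes activating ubiquitin chains from the receptor complexes (chr10:19000910-19015657). In AT2-like cells it had 6.91 CPM in the control (5.50 to 8.58) and 23.0 CPM in that of IL-1β (21.1 to 25.0), a ratio of 3.32 (2.63 to 4.25). In AT1-like cells the levels were 17.8 and 37.2 CPM, a ratio of 2.09 (1.58 to 2.81). In DATP-like cells they were 18.6 CPM, from 9 UMIs, and 30.5 CPM, and the interval of the ratio of 1.64 held 1 (0.815 to 3.74). Stromal cells had 18.4 and 13.4 CPM, a ratio of 0.727 (0.582 to 0.904), or -0.46 on the log2 scale beside the stromal median of -0.33. Under the alternatives tried this value ranged from -0.51 to -0.11.

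Tnip1 encodes a ubiquitin-binding partner of A20 (chr11:54910785-54962917). It had 12.9 and 27.3 CPM in AT2-like cells (ratio 2.12, 1.77 to 2.54), and 26.3 and 54.8 CPM in AT1-like cells (ratio 2.08, 1.65 to 2.65). In DATP-like cells the levels of 35.2 and 41.0 CPM had overlapping intervals. In stromal cells it had 25.2 CPM (22.6 to 28.1) and 40.8 CPM (36.8 to 45.0). This ratio of 1.62 (1.39 to 1.87) was under the 2-fold limit, and it was higher than that of 93.9% of the stromal genes counted. With median-of-ratios size factors it passed the limit, at 1.02 on the log2 scale.

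Tnip3 encodes a related partner, known for its low basal level and its induction by inflammatory signals (chr6:65525313-65634040). It was at least 2-fold higher in the IL-1β library in each of the 4 classes. In AT2-like cells it had 3.79 CPM in the control and 39.1 CPM in the IL-1β library (ratio 10.3, 7.64 to 14.2), and in AT1-like cells 7.97 and 126 CPM (ratio 15.8, 11.0 to 23.7). The AT2-like log2 ratio of 3.37 ranged from 2.15 (resolution 2.0) to 4.58 over the alternatives, and was 2.90 without cluster E3. In DATP-like cells 3 control UMIs gave 6.20 CPM against 167 CPM, a ratio of 26.9 whose interval ran from 9.13 to 131. In stromal cells 8 UMIs in 797 control cells gave 0.589 CPM, against 133 UMIs and 14.0 CPM in 478 IL-1β cells, a ratio of 23.8 (11.7 to 56.3). DATP-like cells had the highest level in the IL-1β library and were apart from AT1-like, AT2-like and stromal cells, in that order. Sftpc, Sftpb and Sftpa1, which stromal cells should lack, were measured in IL-1β stromal cells at 5.98% to 6.22% of their AT2-like level. Tnip3 was there at 35.8% of its AT2-like level, which is its lowest among the epithelial classes of that library. Beside the 126 and 167 CPM of AT1-like and DATP-like cells, the stromal 14.0 CPM is a smaller share, and the part of carry-over was not tested.

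Birc3 encodes a ubiquitin ligase of the inhibitor of apoptosis family that sits in TNF receptor complexes (chr9:7848699-7873186). In AT2-like cells it had 32.4 and 75.9 CPM (ratio 2.35, 2.10 to 2.63), and in AT1-like cells 18.3 and 84.1 CPM (ratio 4.59, 3.55 to 6.01). In DATP-like cells it had 26.9 and 59.3 CPM (ratio 2.20, 1.25 to 4.25). In the control the intervals of neighbours in the order overlapped, but the AT1-like level (14.3 to 23.2) was apart from the stromal (27.8 to 33.8) and AT2-like ones (29.2 to 35.8). The stromal levels of 30.7 and 31.8 CPM had a ratio of 1.04 (0.891 to 1.21). Its log2 value of 0.05 ranged from -0.02 to 0.38 over the alternatives.

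The subunits of the non-canonical branch are RelB and the precursor that Nfkb2 encodes, which also retains NF-κB dimers until it is processed. Relb (chr7:19606217-19629438) had 11.4 CPM in control AT2-like cells (9.54 to 13.5) and 46.2 CPM in those of the IL-1β library (43.4 to 49.0), a ratio of 4.06 (3.39 to 4.89). In AT1-like cells it had 43.0 and 73.9 CPM, and the ratio of 1.72 (1.42 to 2.08) was under the limit. In DATP-like cells it had 43.4 and 57.9 CPM, with an interval of the ratio that held 1 (0.836 to 2.23). AT2-like cells thus had the lowest level of the 4 classes in both libraries. In the IL-1β library their interval overlapped that of DATP-like cells (48.25 to 68.87). The classes spanned 4.39-fold in control and 1.60-fold in IL-1β organoids. Stromal cells had 49.97 and 56.0 CPM, a ratio of 1.12 (0.999 to 1.26). Its log2 value of 0.17 ranged from 0.06 to 0.49 over the alternatives.

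Nfkb2 (chr19:46304320-46312385) had 14.3 and 30.3 CPM in AT2-like cells (ratio 2.13, 1.79 to 2.53). In AT1-like cells it had 32.7 and 65.2 CPM, and its ratio of 1.995 (1.62 to 2.48) fell just short of the limit. The values on either side of the limit in this class were those of Tnip1, at 2.08, and Nfkb2. In DATP-like cells it had 29.0 and 41.9 CPM (0.821 to 2.75 for the ratio), and in stromal cells 36.1 and 41.7 CPM (ratio 1.16, 1.01 to 1.32). The stromal log2 ratio of 0.21 ranged from 0.12 to 0.54 over the alternatives.

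Tnfaip2 is a TNF-inducible target known for its part in the formation of membrane protrusions (chr12:111442469-111455018). In control AT2-like cells 42 UMIs gave 3.54 CPM (2.55 to 4.79), and in the IL-1β library it had 66.0 CPM (62.7 to 69.5), a ratio of 18.6 (13.7 to 26.0). In AT1-like cells 10 control UMIs gave 2.66 CPM against 112 CPM, a ratio of 42.1 (22.7 to 88.3). In DATP-like cells 0 UMIs in the 33 control cells stood against 98 UMIs and 44.7 CPM, at least 7.2-fold higher when the count of 0 is taken to allow 3 UMIs, with a lower interval limit of 5.75. It was thus near or at 0 in each control epithelial class, and in the IL-1β library the intervals of the AT1-like and stromal levels overlapped. Stromal cells had 144 CPM in the control (138 to 150.4) and 123 CPM in the IL-1β library (116 to 130). The stromal ratio of 0.854 (0.793 to 0.918) was -0.23 on the log2 scale, and its direction flipped to 0.10 with median-of-ratios size factors and to 0.07 with TMM factors. In the control, the collagen genes Col1a1, Col1a2 and Col3a1 were measured in AT2-like cells at 1.83% to 2.55% of their stromal level, and Tnfaip2 at 2.46%, or at 1.08% in the 799 AT2-like cells outside cluster E3.

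**Figure D3:**
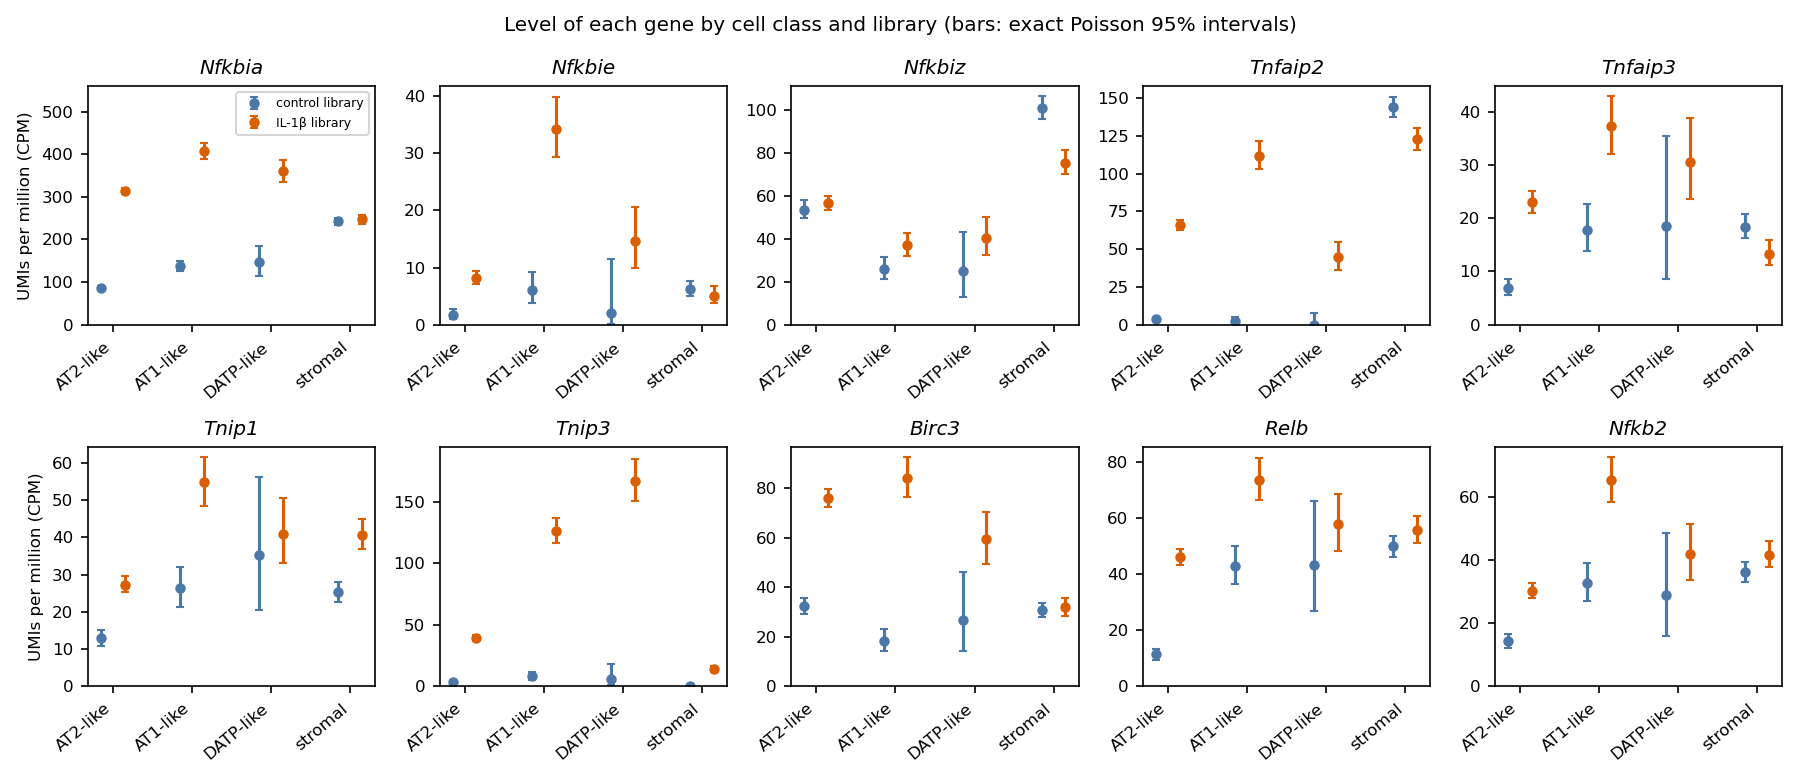
Level of each gene in UMIs per 1000000 UMIs (CPM, vertical axis, from 0, its own scale per gene) in the 4 classes (horizontal axis) of the control (blue) and IL-1β (orange) libraries. Points are 1 library each and bars are exact Poisson 95% intervals. For Tnfaip2 the control points of the 3 epithelial classes lie at 0 to 3.54 CPM and the stromal points at 123 to 144 CPM.

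The order of the classes was read against that of all genes with at least 50 UMIs over the classes of a library, 11921 in the control and 12107 in the other. In the control, 6 of the 10 genes had their highest level in stromal cells (Nfkbia, Nfkbie, Nfkbiz, Tnfaip2, Relb and Nfkb2), against 33.6% of all genes. For 3 of them, Nfkbia, Nfkbiz and Tnfaip2, the interval was apart from the next class, against 17.8%. In the same library 6 had their lowest level in AT2-like cells, against 40.4%. With IL-1β, 7 had their highest level in AT1-like cells, against 41.9%, and were apart from the next class for Nfkbia, Nfkbie and Nfkb2, against 11.9%. Stromal cells had the lowest level of 5 genes there, against 50.1%, and the highest of Nfkbiz and Tnfaip2, against 25.0%. Both shares were at or below the background. With only 10 genes, the other counts of this order are also a description and no result about the genes.

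Counted cell by cell, more of the 10 genes were found per cell in the epithelial classes of the IL-1β library. Such a count rises with the level of each gene alone, and whether the genes occurred together was not tested. To set the libraries at 1 depth, each cell was thinned to 4000 UMIs, which left out no cell, since the lowest cell had 4605 UMIs. Of the AT2-like cells, 46.4% of the control had a UMI of none of the 10 genes, against 15.3% of those treated with IL-1β, and 0.739% and 11.0% had 4 or more of them. The mean number per cell was 0.787 and 1.81. In AT1-like cells the mean was 1.03 and 2.64, and 0.385% and 27.8% of cells had 4 or more. In stromal cells the mean was 1.79 and 1.99.

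Nfkbia was found in 24.6% of thinned AT2-like cells of the control (21.7% to 27.7%) and in 60.8% of those of the IL-1β library (58.6% to 63.0%), or 54.8% and 83.7% before thinning. For Tnfaip2 the thinned shares were 0.862% and 15.2%, and 2.46% and 30.4% before thinning. Tnip3 was found in 1.85% and 10.1% of AT2-like cells, and in 3.82% and 19.7% before thinning. In control stromal cells Tnip3 was found in 1 of 797 thinned cells, 0.126% (0.00318% to 0.697%), against 6.70% (4.62% to 9.32%) in the IL-1β library, or 1.00% and 19.7% before thinning. Nfkbiz was found in 18.6% and 19.6% of thinned AT2-like cells (48.0% and 43.5% before thinning). The medians before thinning were 14021 and 11372 UMIs in AT2-like and 15735 and 14828 in stromal cells. Sftpc had a UMI in 100% of thinned stromal cells of both libraries, and the parts of free RNA and of doublets in this were not tested.

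**Figure D4:**
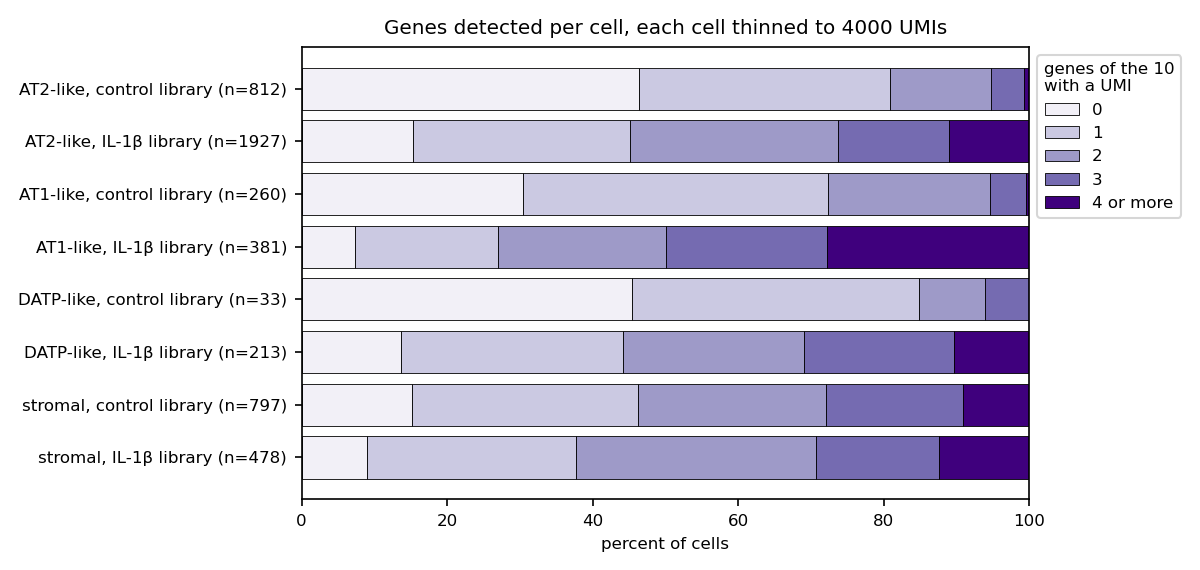
Percent of cells (horizontal axis) with a UMI of 0, 1, 2, 3, or 4 or more of the 10 genes, after each cell was thinned to 4000 UMIs, by class and library. The darkest segment, 4 or more genes, is 11.0% of AT2-like cells of the IL-1β library and 0.739% of those of the control.

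The genes also varied among AT2-like cells of the IL-1β library. The clusters had been drawn without the 10 genes and the other pathway genes. Cluster E3, whose leading genes include the chemokine gene Cxcl5 and the lipopolysaccharide co-receptor gene Cd14, had the highest level of each of the 10 genes among the 3 AT2-like clusters, as it had of 57.8% of the 10682 genes with at least 50 UMIs in them. Its Sftpc level of 58880 CPM was below the 78320 and 69140 CPM of the other clusters. Its level of Sftpd, also an AT2 marker, was above theirs. The DATP markers Cldn4 and Krt8 were at 88.0 and 559.5 CPM, against 17.7 and 360.4 in E1 and 20.2 and 366.8 in E4. Its naming score was 0.667 for AT2-like and 0.523 for DATP-like. At resolution 2.0 a cluster of 235 IL-1β cells led by Tnip3, Cd14 and Slc26a4 was named DATP-like. The part of these features was not tested. For Tnip3 it had 100.3 CPM against 10.8 CPM in E4, a ratio of 9.32 (7.10 to 12.5), and for Tnfaip2 120.4 against 32.7 CPM, a ratio of 3.69 (3.12 to 4.37). Nfkbie had 16.1 CPM in E3 and 4.52 CPM in E1, a ratio of 3.56 (2.52 to 5.10). For Nfkbia and Relb the spread was 1.25-fold and 1.24-fold, and for Tnfaip3 the interval held 1 (0.986 to 1.47). The lowest of the 3 clusters had 287 CPM of Nfkbia, against 77.5 CPM in control cluster E2. With E3 left out, 7 of the 10 genes were at least 2-fold higher in AT2-like cells, without Tnip1 and Nfkb2.

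In the control library 13 AT2-like cells, 1.60% of the class, fell into the same cluster E3. They held 24 of the 42 Tnfaip2 UMIs of control AT2-like cells, but 21 of these 24 were in 1 cell, and the other 3 in a second cell. Tnfaip2 was thus at 98.3 CPM in the 13 cells, at 14.4 CPM without that 1 cell and at 1.55 CPM in the other 799 control AT2-like cells. The 13 cells also held 26 of the 45 Tnip3 UMIs, spread over 12 of them with at most 5 in a cell, and 10 of the 21 Nfkbie UMIs, spread over 6 with at most 2 in a cell. Their Nfkbia level was 463 CPM (425 without the cell that had most, and 77.7 in the other cells), and their Nfkbiz level was 127 CPM (105 and 52.1). The libraries shared 11 barcode sequences, and 0 of them were among these cells. Cells in clusters held mostly by the other library, among them these 13, were also left out. The log2 ratios of AT2-like cells were then 5.41 for Tnfaip2 (4.22 with those cells) and 4.58 for Tnip3 (3.37). They were 3.11 for Nfkbie (2.21) and 2.02 for Nfkbia (1.87), and 9 of the 10 genes were at least 2-fold higher. Since the 13 cells had the higher levels, a rise follows from leaving them out, and these values are no check of the ratios. The share of 1.60% rests on clustering the libraries together. Clustered separately, the control had an AT2-like cluster of 187 cells, among 749 AT2-like cells. Against the other control epithelial cells, its leading genes included Cd14, Slc26a4 and Slpi, which also lead E3, and Nfkbia, but not Cxcl5. Levels of the 10 genes were not summed in that cluster.

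**Figure D5:**
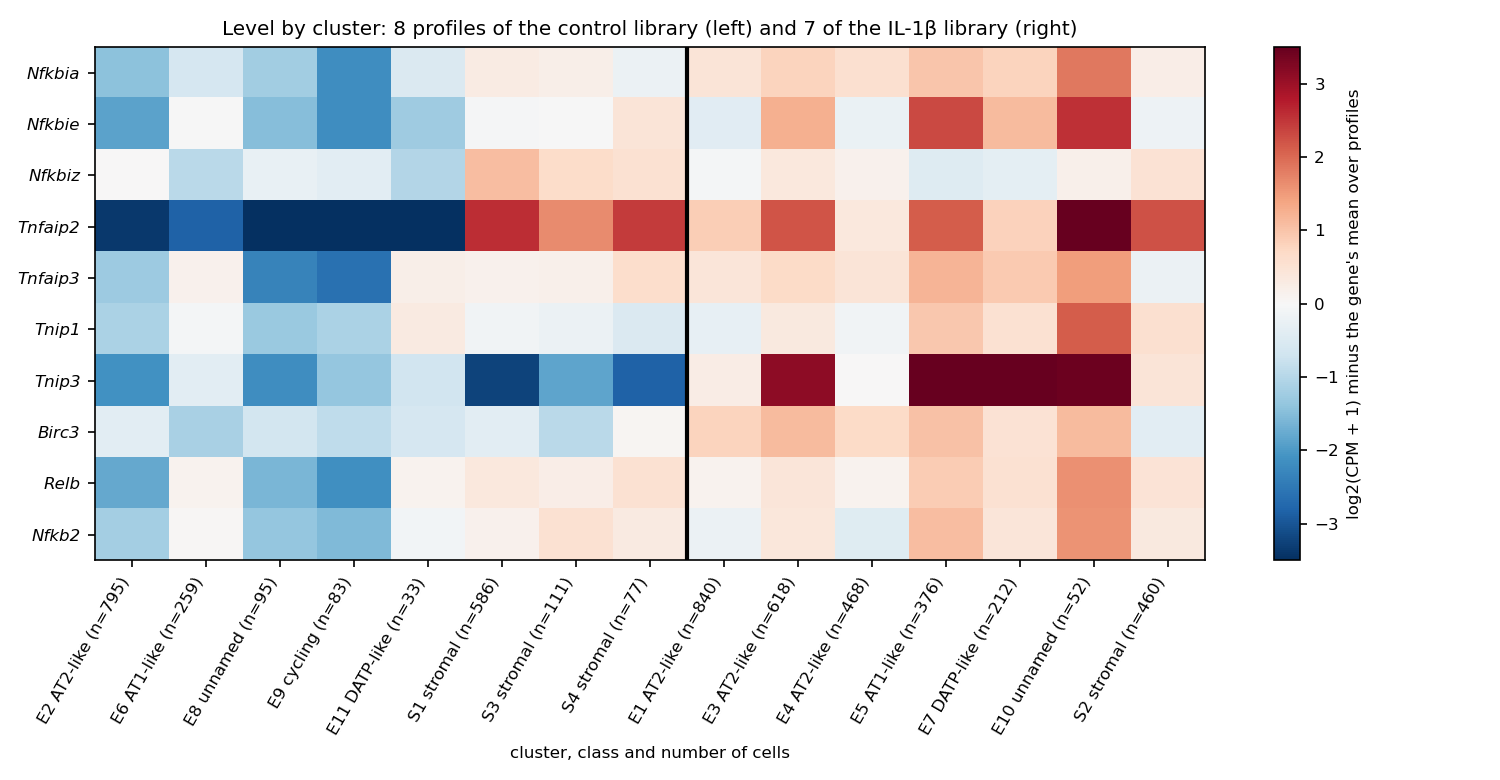
Level of each gene (rows) in each cluster with at least 30 cells of a library (columns), as log2(CPM + 1) minus the gene's mean over the 15 profiles. Red is above and blue below that mean, and the black line separates 8 control from 7 IL-1β profiles. Tnfaip2 is blue in the 5 control epithelial profiles and red in the 3 control stromal ones.

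Over the 14 profiles of at least 50 cells, the 45 pairs of the 10 genes had a median Pearson's r of 0.75. The highest was 0.96, between Relb and Nfkb2, and the lowest was -0.33, between Tnip3 and Nfkbiz. Among 7145 genes with at least 1000 UMIs, Relb was the most alike in pattern for Nfkbia (r = 0.93), Tnfaip3 (0.95) and Nfkb2 (0.96). Genes outside the 10 came close behind it, Arpc3 for Nfkbia (0.93), Gsdmd for Tnfaip3 (0.94) and Psmd4 for Nfkb2 (0.94). Nfkb2 was the most alike for Tnip1 (0.91) and the second for Nfkbie (0.94, after Ifngr2 at 0.95). For Tnip3 it was Cldn4 (0.94), for Tnfaip2 Orai2 (0.96), for Nfkbiz Arpc1b (0.95), for Birc3 St3gal1 (0.93) and for Relb Sra1 (0.96). No median r of other gene pairs is set beside that of the 10 genes. These profiles share 2 libraries and differ in depth, so the values are a description.

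A wider list of 61 pathway genes was set beside the 10. In AT2-like cells 12 of the 58 with at least 50 UMIs were at least 2-fold higher, in AT1-like cells 14 of 53, in DATP-like cells 14 of 40 and in stromal cells 9 of 56, beside the 8.46%, 4.47%, 6.65% and 4.23% of all genes given above. In each class most of these were among the other target genes, 10 of 20, 10 of 18, 10 of 16 and 9 of 18. Of the receptors and adaptors 0 of 13, 12, 7 and 14 were past 2-fold, which at these backgrounds is no result about them. Of the brakes that are not among the 10, Zc3h12a, which encodes a ribonuclease that degrades inflammatory transcripts, had 6.91 and 46.2 CPM in AT2-like cells (ratio 6.68, 5.33 to 8.47) and 4.25 and 53.0 CPM in AT1-like cells (ratio 12.5, 7.54 to 22.1). The canonical subunit gene Nfkb1 was 2.23-fold higher in AT1-like cells (1.85 to 2.70) and 2.76-fold higher in DATP-like cells (1.63 to 5.03). The kinase subunit gene Ikbkg was the 1 gene at least 2-fold lower, in DATP-like cells, at 53.8 and 18.2 CPM (ratio 0.339, 0.202 to 0.579).

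Stromal cells had 9 of 18 targets at least 2-fold higher. Saa3, an acute-phase gene, had 10030 and 60210 CPM (ratio 6.00, 5.97 to 6.04), and Lcn2, the iron-binding lipocalin gene, 1364 and 9283 CPM (ratio 6.81, 6.70 to 6.92). The neutrophil chemokine gene Cxcl2 was 7.64-fold higher (6.45 to 9.09) and Il6 was 4.07-fold higher (3.76 to 4.41). Ranked lowest among the targets in the same cells were Gadd45b, a stress-response gene, at a ratio of 0.560 (0.484 to 0.646), and Cflar, which encodes an inhibitor of caspase-8 activation, at 0.631 (0.559 to 0.711). Bcl2l1 (0.739, 0.629 to 0.867) and Csf1 (0.747, 0.681 to 0.820) also had intervals below 1. These stand beside a stromal median log2 ratio of -0.33. Past 2-fold were 1 of the 10 NF-κB feedback and target genes and 0 of the 11 other brakes, beside 4.23% of all stromal genes. At this background these counts are no result about those genes. In AT2-like cells the targets ranked highest were Tnf, with 0 control and 110 IL-1β UMIs (at least 19.1-fold higher when the count of 0 is taken to allow 3 UMIs, with a lower interval limit of 15.3), Ccl20 (20.2-fold, 10.5 to 44.6) and Saa3 (5.74-fold, 5.59 to 5.88). Saa3 had 566 and 3244 CPM in AT2-like, 495 and 2956 in AT1-like and 529 and 3243 in DATP-like cells. These levels stand beside the far higher stromal 10030 and 60210 CPM, and the part of carry-over in them was not tested. In AT1-like cells Cxcl2 was 113-fold higher on 2 control UMIs (31.0 to 938).

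Other features of the libraries moved with these results, and their part was not tested. A list of 13 dissociation and immediate early genes summed to 1665 and 2294 CPM in AT2-like, 1985 and 1939 in AT1-like, 2045 and 2725 in DATP-like and 2481 and 1535 in stromal cells of the control and IL-1β libraries. These sums held opposite differences: 3 of 13 genes were at least 2-fold higher and 0 lower in AT2-like, 1 and 2 of 12 in AT1-like, 4 and 1 of 12 in DATP-like and 1 and 4 of 13 in stromal cells. The heat-shock gene Hspa1a had a ratio of 8.38 in AT2-like and 9.53 in AT1-like cells, and Fosb had 0.205 and Zfp36 0.472 in AT1-like cells. Of 6 endothelial markers, 4 were found in control stromal cells (11.0 CPM summed, with Cdh5 and Cldn5 at 0) and 6 in IL-1β stromal cells (53.5 CPM). Of 10 immune markers, 9 were found in control stromal cells (39.7 CPM, Cd3e at 0) and 5 in IL-1β stromal cells (20.8 CPM, with Ptprc, Adgre1, C1qa, C1qb and Cd3e at 0). In AT2-like cells the immune markers summed to 13.1 and 41.2 CPM, in AT1-like cells to 32.1 and 36.6 CPM and in DATP-like cells to 22.8 and 83.9 CPM. Ptprc was at 0 in AT1-like and in DATP-like cells of both libraries. In the largest stromal cluster of each library 1 of the 10 genes was at least 2-fold higher, as in all stromal cells. These clusters held 586 of the 797 control and 460 of the 478 IL-1β stromal cells. The endothelial and immune markers were not summed within them, so this count does not bear on those markers.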

How the data were processed

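The authors made the files with Cell Ranger on GRCm38 and deposited raw UMI counts per gene and barcode, which their cutoffs and stromal exclusion had not yet reduced. The members and gene lists were chosen with earlier results of these data known, and all 10 members are named by rule.

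Barcodes with 500 to 7000 genes and over 2000 UMIs were kept. A doublet score over 0.7, the cutoff of the paper, marked 3 of 5142 cells (0.0583%). This removed almost no cells, so doublets must be taken to remain. Their number, and whether the caller worked, were not examined. Counts were scaled to 10000 per cell, and 50 principal components and 15 neighbors were clustered by Leiden at resolution 1.0 (scanpy 1.11.5, leidenalg 0.10.2), without 71 pathway genes. A cluster took the class whose markers were on average nearest their highest cluster, a rule set after the clusters were seen. Clusters led by another class stayed unnamed. So did clusters scored highest as cycling or airway secretory with no marker of that type among their 10 leading genes.

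UMIs were summed per class. Genes with at least 50 UMIs over both libraries were counted as higher at a ratio of at least 2 with a 95% interval above 1, or lower at 0.5 or less. A count of 0 was taken to allow 3. Profile correlations used log2(CPM + 1). Other pathway genes were named by the interval limit nearest 1, up to 4 per direction and class. Nfkb1 was named after its values were seen. The calculation of ratios and intervals was run on simulated Poisson counts, the error that the intervals assume. Spread between cells or libraries was not simulated, so this run does not bear on the ratios found. The 14 alternatives set first varied clustering, cells, doublets, scaling (TMM of edgeR 4.0.16), weighting and the UMI minimum, and 3 were added after seeing the data. Positions are those of GENCODE M21.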

Additional observations from a re-analysis of the deposited data

Results flagged for a closer look

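For 3 genes the IL-1β over control ratio lay above 1 in an epithelial class and below 1 in stromal cells, with both intervals apart from 1, and these differences between classes were not tested. Nfkbiz had a ratio of 1.42 in AT1-like and 0.747 in stromal cells. Tnfaip2 had 42.1 in AT1-like and 0.854 in stromal cells, where the direction flipped under median-of-ratios and TMM scaling. Tnfaip3 had 3.32 in AT2-like and 0.727 in stromal cells. The stromal median of all genes was itself below 1, at -0.33 on the log2 scale.

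Cluster E10 belongs to none of the 4 classes. It held 52 cells of the IL-1β library and 1 of the control, its leading genes included Ccl20, Fxyd3 and Tnfaip2, and its Sftpc level of 13830 CPM was below the 58880 CPM of AT2-like cluster E3. Against the 1284 epithelial cells of the control, 9 of the 10 genes were higher there, with intervals above 1, against 17.0% of the 10628 genes with at least 50 UMIs. The ratios were 148 for Tnfaip2 (111 to 201), 26.6 for Tnip3, 15.5 for Nfkbie, 8.03 for Nfkbia, 7.72 for Tnip1, 6.63 for Relb, 5.31 for Tnfaip3, 5.23 for Nfkb2 and 3.17 for Birc3. Since Tnfaip2 is among the genes by which the cluster is described, its ratio is a description. E10 scored highest for airway secretory markers, at 0.938, but had none of them among its leading genes and so stayed unnamed. With Louvain clustering, random seed 1 or all barcodes, Ccl20 was among the leading genes of an unnamed cluster of 35 or 36 cells. In each of these settings a separate cluster of 9 IL-1β cells was named airway secretory. Whether E10 holds more than 1 cell type was not tested. The control cells that E10 is set against are epithelial cells of all classes. The parts of cell type and of treatment in these ratios cannot be told apart. For Nfkbiz the ratio of 1.28 had an interval that held 1 (0.945 to 1.69). The median depth of these cells was 16105.5 UMIs.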

How the results depend on the processing

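The counts of genes at least 2-fold higher ranged from 7 to 9 in AT2-like, 5 to 8 in AT1-like, 2 to 6 in DATP-like and 0 to 2 in stromal cells over the alternatives run. With at least 200 UMIs asked for, the count was 2 in DATP-like and 0 in stromal cells, because fewer genes were counted, and with median-of-ratios size factors it was 2 in stromal cells. The stromal log2 ratio of Tnfaip2 reversed, from -0.23 to 0.098 with median-of-ratios and to 0.073 with TMM factors, since these scalings moved all stromal ratios by 0.33 and 0.30. Of 540 comparisons of a gene's ratio with its main value, 493 stayed within its interval and 527 kept its sign. AT1-like cells could not be compared at resolution 0.5, with Louvain clustering, with all barcodes, or with the highest-scoring 5% of cells removed. DATP-like cells could not be compared at that resolution and that removal. In each case fewer than 20 cells of a library took the name. For AT1-like these were 5, 7, 5 and 2 IL-1β cells. A cluster led, like E5, by AW112010, Cttnbp2nl and Tgfb2 was named DATP-like at resolution 0.5 and stayed unnamed in the other settings. The AT1-like range of 5 to 8 thus covers only settings in which the name held. No paired analysis was possible because each condition has 1 library. Leaving out a replicate was not possible for the same reason. DATP-like ratios rest on 33 control cells and 0 to 71 UMIs per gene.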
